A study of Mus musculus with 2 samples.

Results

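Keratins, claudins and the genes of epithelial junctions were followed in the lung lobes of a Foxj1lacZ homozygous mouse embryo and of a heterozygous littermate. They were taken by gene name from the array's annotation: numbered keratins (Krt), claudins (Cldn), zonula occludens genes (Tjp), desmogleins (Dsg) and desmocollins (Dsc), and a short list of junction genes from Cdh1 to Marveld2. A gene was kept when either channel called at least 1 of its probes well above background. This gave 64 genes with 85 probes, of 81 genes with 109 probes on the array. Over the whole array, 21262 of 27740 genes were detected.

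The homozygous lung (Foxj1 -/-) was labelled with Cy5 and the heterozygous lung (Foxj1 +/-) with Cy3. Both embryos were male, at E16.5, on an Sv129/CD-1 hybrid background, and the heterozygous lung also carries 1 copy of the lacZ allele. Tissue outside the lobes had been removed, and 100 ng of total RNA per lung was amplified, labelled and hybridised together to 1 array. There was 1 lung per genotype and no dye swap, so genotype, dye and the single animal cannot be told apart, and no difference below has a replicate check or a p-value.

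Keratins are the intermediate filament proteins of epithelia, built as pairs of a type I and a type II chain. Claudins are the membrane proteins that line up cells in the tight junction and set its permeability, and zonula occludens proteins tie them to actin. E-cadherin holds neighbouring cells together in the adherens junction, and desmosomes anchor keratin filaments to the membrane. Foxj1 is a forkhead factor known for driving motile ciliogenesis, and the lung epithelium that carries motile cilia also uses these junctions.

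All ratios are log2 of the homozygous over the heterozygous lung, levels are log2 of the normalized intensity of each channel, and ± gives the error that the scanner software assigns to a ratio. That error covers spot and channel noise, not animals or probes. Foxj1 itself stood at 7.61 in the homozygous and 9.53 in the heterozygous lung, a ratio of −1.92 ± 0.30. Whether its probe lies in the part that the lacZ allele removes is not given in the sources used here. Of 43379 spots, 75.6% were well above background in the homozygous and 69% in the heterozygous channel. Repeated spots of a probe had a median SD of 0.045 in the ratio over 214 probes, and different probes of a gene had a root mean square SD of 0.27 over 7106 genes. The source names call the material epithelium, while the titles say lung lobes. All 6 endothelial, all 6 mesenchymal and all 4 smooth muscle markers on the array were detected, but so were 21262 of 27740 genes. The marker levels in the heterozygous lung ran from 9.42 to 14.71 (endothelial), 8.90 to 12.66 (mesenchymal) and 10.77 to 13.72 (smooth muscle). The lobes are treated here as whole tissue. In such tissue fewer cells of a type and less RNA per cell cannot be told apart.

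No keratin, claudin or junction gene differed 2-fold under the main normalization. At least 2-fold lower in the homozygous lung were 0 of the 64 genes, against 1.88% of all detected genes. At least 2-fold higher were also 0, against 0.578% of all genes. These counts moved with the processing. The count lower was 1 with a background offset of 0, median centring, the scanner's log ratio or the series matrix, against 1.43% to 5.4% of all genes. The count higher was 3 with median centring, 3 with the scanner's log ratio and 2 with the series matrix, against 2.17% to 3.4%. The median ratio was −0.09 for the 64 genes and 0.00 for all genes, and with median centring and no loess it was 0.09 for the 64 genes and 0.22 for all genes. As normalized here, the ratios ran from −0.96 (Dsg1b) to 0.65 (Cldn9). Below 0 were 40 of the 64, against 50.5% of all genes. At −0.5 or under stood 5 genes (Dsg1b, Cldn10, Krt5, Krt19 and Krt34), against 7.84% of all genes, and at 0.5 or over stood 2 (Cldn9 and Cldn6), against 3.06%. The counts at 0.5 are near the shares of the array as a whole.

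The ratio was smaller than its own scanner error in 40 of the 64 genes. It was lower by more than that error in 20 genes, against 20% of all genes, and higher by more than it in 4 genes, against 14.9%. The 4 were Cldn9, Cldn6, Tacstd1 and Cdh1. Of all 64, 61 lay inside the central 95% of the array, which ran from −0.90 to 0.54. The exceptions were Dsg1b below it and Cldn6 and Cldn9 above it.

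**Figure D1:**
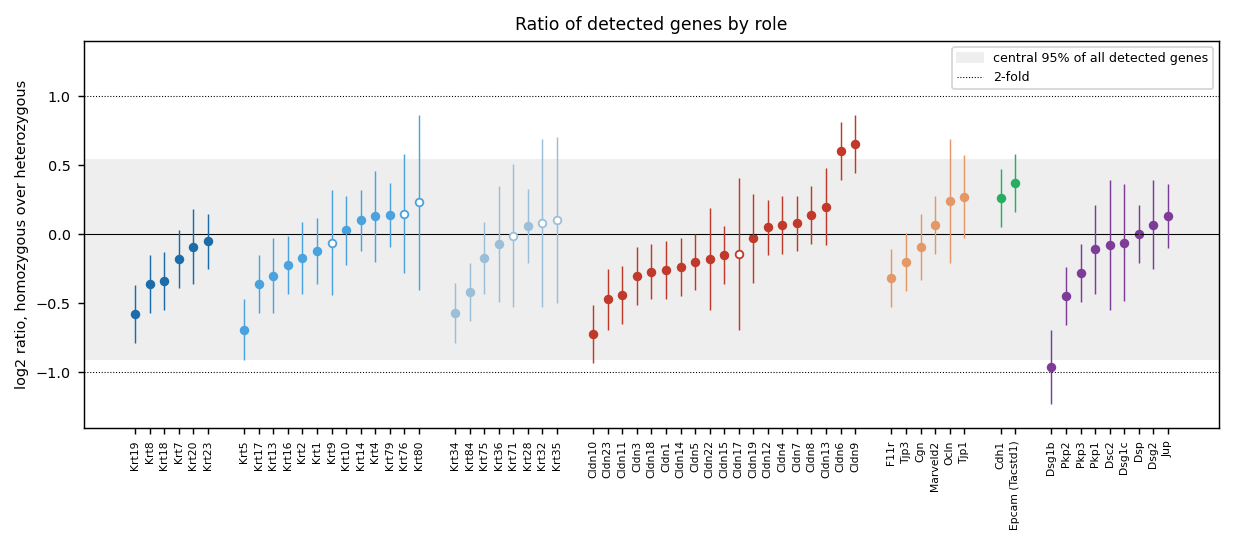
Log2 ratio (homozygous over heterozygous) of the detected genes but 1, ordered within their roles; vertical bars are the scanner software's error, open circles mark genes that cleared background only in the homozygous channel, and the grey band is the central 95% of all detected genes. Only Dsg1b, Cldn6 and Cldn9 have their point outside the band, and no point passes the dotted 2-fold lines.

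The simple keratins, those of single-layered epithelia such as the airway and alveolar lining, were all below 0 as normalized here. Their median was −0.26 over 6 genes. It became 0.50 when ratios were only centred on their median, without loess. In that setting all genes had a median of 0.22, and all genes at a log2 intensity of 12 or more one of 0.68. Krt8, the type II chain of the basic epithelial pair, had a level of 15.41 in the homozygous and 15.77 in the heterozygous lung. Its ratio was −0.36 ± 0.21, and its probes read −0.37 and −0.35. Krt18, the type I partner with which Krt8 polymerises, stood at 15.21 in the homozygous and 15.55 in the heterozygous lung, a ratio of −0.34 ± 0.21. The ratios of these partners differed by 0.02 in size, which is less than the spread between repeated spots.

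Krt19, a type I keratin of ducts and airways, had the lowest ratio of the simple keratins, at −0.58 ± 0.21. Its level was 14.03 in the homozygous and 14.61 in the heterozygous lung, 1.49-fold lower in the homozygous. Krt7, a type II keratin of glandular and airway epithelium, stood at 13.88 in the homozygous and 14.06 in the heterozygous lung, with a ratio of −0.18 ± 0.21. Its probes gave −0.34 and −0.02, so the value rests on which probe is read. Krt20 and Krt23 had ratios of −0.09 and −0.05, inside their errors. The epithelial keratins are also made by mesothelium, the lung's outer lining. In the mesothelial list 4 of 5 markers were above 0 (median 0.59, with Bnc1 at 0.74 and Upk1b at 0.65 the highest) and Msln stood at −1.58. The log2 of the summed mesothelial level was 12.85 in the homozygous and 13.65 in the heterozygous lung. Msln was its largest term, at 11.69 in the homozygous and 13.27 in the heterozygous lung, so the sum follows Msln and not the other 4. The part of mesothelium in the keratin ratios was not tested.

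The stretch of DNA before Krt8 and Krt18, which lie near each other on chromosome 15 with 2 gene starts between them, is shown because the ratios of this pair stand closest together. Both sequences are the 250 bases before the RefSeq transcription start in the GRCm38.p6 assembly, 5′ to 3′ on the gene's strand. Capitals mark the 6-base E-box CAGGTG or its reverse complement CACCTG, the form bound by the Snail and Zeb repressors of epithelial genes. Krt8 occupies chr15:102004343-102004592 on the minus strand and Krt18 chr15:102027966-102028215 on the plus strand.
Krt8: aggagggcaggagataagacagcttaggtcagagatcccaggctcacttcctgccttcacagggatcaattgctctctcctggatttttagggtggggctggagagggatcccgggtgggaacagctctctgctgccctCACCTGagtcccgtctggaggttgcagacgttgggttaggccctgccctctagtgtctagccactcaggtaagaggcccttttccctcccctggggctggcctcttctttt
Krt18: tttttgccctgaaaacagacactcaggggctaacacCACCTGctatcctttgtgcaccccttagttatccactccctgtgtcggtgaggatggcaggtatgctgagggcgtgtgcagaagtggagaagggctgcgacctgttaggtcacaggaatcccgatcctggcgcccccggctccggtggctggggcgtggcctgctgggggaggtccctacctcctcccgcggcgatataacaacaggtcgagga

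Each holds 1 such E-box. The promoter table matched 44 of the 64 genes, and CAGGTG on either strand was present in 16 of these 44, against 19.4% of 27025 genes. The TATA box letters TATAAA on either strand were present in 9 of 44, against 14.3% of all genes. TGTTTAC, a core that forkhead factors can bind, was present in 0 of 44 on either strand, against 3.54% of all genes. These are letters in a window and say nothing of binding. The factors that bind this E-box were also on the array. Snai1 stood at 0.15, Snai2 at −0.04 and Zeb1 at −0.02. Zeb2 stood at −0.10, the median of 5 probes that ran from −1.06 to 0.39.

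**Figure D2:**
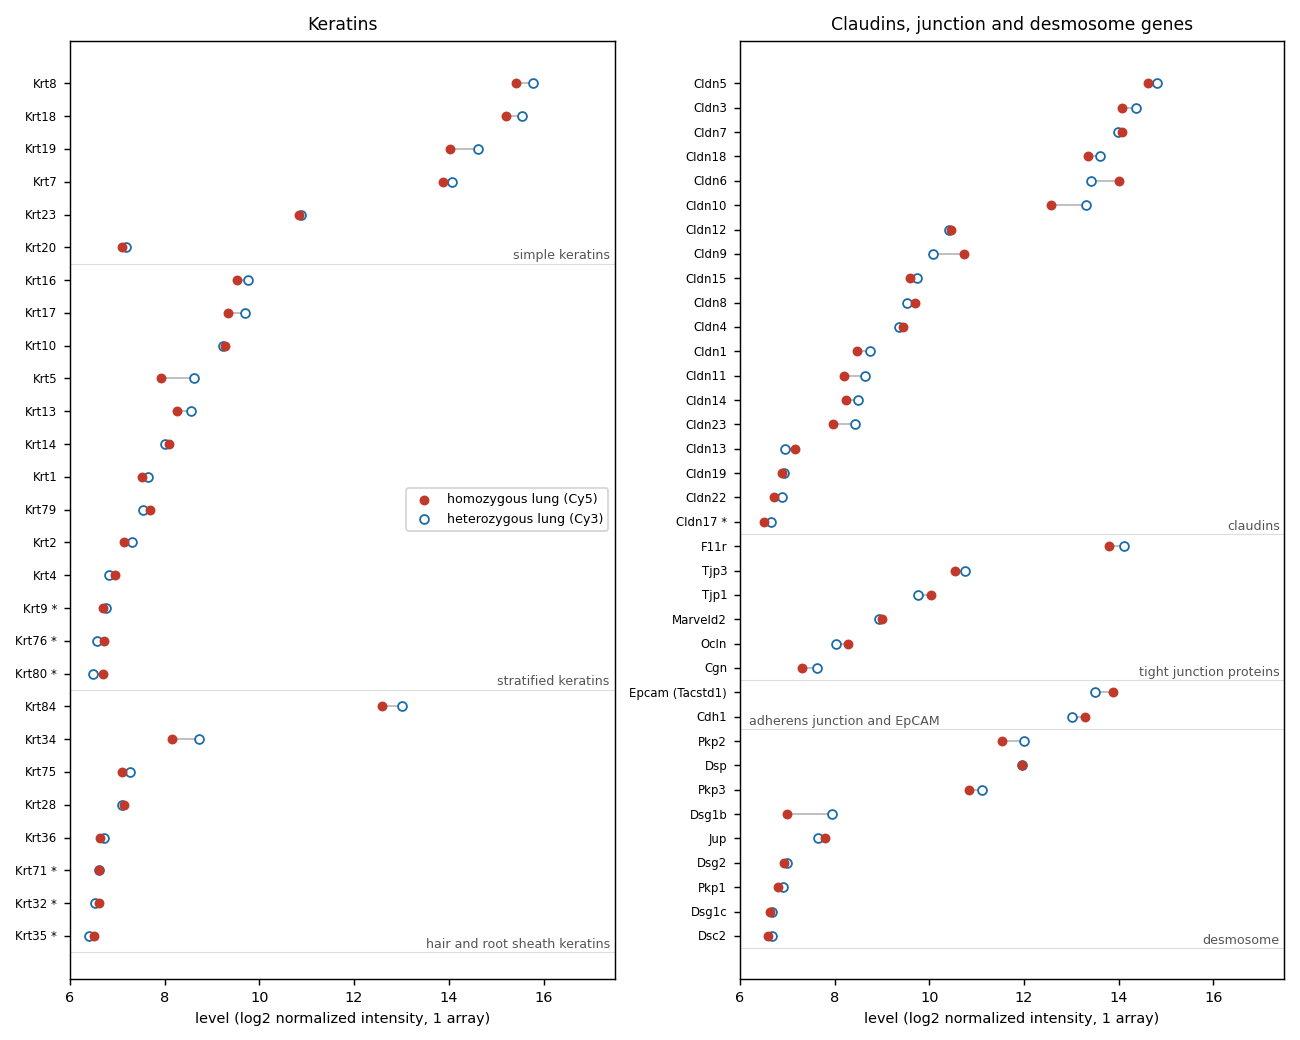
Level of the detected genes but 1 (log2 normalized intensity) in the homozygous (filled) and heterozygous (open) lung, with keratins on the left and claudins, junction and desmosome genes on the right; an asterisk marks genes that cleared background only in the homozygous channel. The filled and open circles of most genes nearly touch, and the widest gaps are those of Dsg1b, Cldn10, Krt5, Cldn9 and Cldn6.

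Keratins of stratified epithelia gave 13 detected genes with a median of −0.06, 7 below and 6 above 0. Krt5, the type II keratin that marks basal cells, stood at 7.93 in the homozygous and 8.62 in the heterozygous lung, a ratio of −0.69 ± 0.22 and 1.61-fold lower in the homozygous. Krt14, its type I partner in basal cells, stood at 8.10 in the homozygous and 8.0 in the heterozygous lung, a ratio of 0.10 ± 0.22. The ratios of these partners thus differed by 0.79 in size, with Krt5 lower. The other basal cell markers on the array, Ngfr and Trp63, had ratios of −0.25 and −0.10. All 4 basal markers were detected, as were 21262 of 27740 genes over the whole array. The levels of the 4 in the heterozygous lung ran from 7.28 to 8.62. The log2 of the summed level of this list was 9.79 in the homozygous and 10.06 in the heterozygous lung, with Krt5 and Krt14 themselves among the 4. Whether fewer basal cells went with the Krt5 value was not tested.

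Krt17, a type I keratin of activated and basal epithelium, was at 9.34 in the homozygous and 9.69 in the heterozygous lung (ratio −0.36 ± 0.21). Krt16, a type I keratin of activated epidermis, was at 9.53 in the homozygous and 9.75 in the heterozygous lung (ratio −0.22 ± 0.21). Krt13, the type I keratin of mucosal stratified epithelium, had a ratio of −0.30 ± 0.27, and its probes read −0.31 and −0.29. Its mucosal partner Krt4 had a ratio of 0.13 ± 0.33, inside its error.

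Krt10, the type I keratin of differentiating epidermis, had a ratio of 0.03 from probes of opposite sign. Its brighter probe read 11.33 in the homozygous and 11.56 in the heterozygous lung, and the dimmer one read 7.21 in the homozygous and 6.93 in the heterozygous lung. The ratios of these probes were −0.22 ± 0.20 and 0.28 ± 0.29. Krt1, the type II partner of Krt10, also had probes of opposite sign, at −0.39 ± 0.22 and 0.16 ± 0.27. The first of them read 7.80 in the homozygous and 8.19 in the heterozygous lung, and the second 7.25 in the homozygous and 7.09 in the heterozygous lung. In the files these Krt1 probes lie on opposite strands of chromosome 15, the first on the plus strand, and as annotated they cannot match the same transcript. Krt2 and Krt79 had ratios of −0.17 and 0.14, inside their errors.

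The probes of Krt19 and Krt10 are shown because they resemble each other over 20 bases, and the pattern was drawn from these 2 probes. Each sequence is the 60-base probe as deposited, given 5′ to 3′, and capitals mark GTNCAGCTNTCNCAGATNCA, where N is any base. The Krt19 probe lies at chr11:99957168-99957227 and the dimmer Krt10 probe at chr11:99202770-99202829, both on the minus strand of mm8.
Krt19: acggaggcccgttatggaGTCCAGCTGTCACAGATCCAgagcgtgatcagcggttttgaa
Krt10: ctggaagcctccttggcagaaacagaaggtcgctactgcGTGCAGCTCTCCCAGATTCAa

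Both probes had to match this pattern, as it was drawn from them. Searched on the probe strand alone, it was present in 2 of 41174 array probes (0.00486%), and these were the 2. Outside the pattern the probes differ, and their ratios went in opposite directions, −0.58 for Krt19 and 0.28 for this Krt10 probe. Over 3541 pairs of kept probes of different genes of the set, the longest unbroken run shared was 13 bases, between Krt7 and Krt79 and between Cldn14 and Cldn9. Cross-hybridisation between family members was not tested.

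Hair and root sheath keratins, best known from the hair follicle, gave 8 detected genes with a median of −0.04. Krt34, a type I hair keratin, stood at 8.15 in the homozygous and 8.72 in the heterozygous lung, a ratio of −0.57 ± 0.22 and 1.48-fold lower in the homozygous. Krt84, a type II hair keratin, stood at 12.59 in the homozygous and 13.01 in the heterozygous lung, a ratio of −0.42 ± 0.21. It turned to 0.20 with median centring and no loess, where all genes at a log2 intensity of 12 or more had a median of 0.68. The Krt84 signal lay at the 88.7 percentile of mean intensity over all detected genes. Of the 15 hair and root sheath keratins on the array, 7 were not well above background in either channel. The 8 detected of 15 compare with 21262 of 27740 genes over the whole array. Krt75, a root sheath keratin, stood at 7.10 in the homozygous and 7.27 in the heterozygous lung, inside its error at −0.17 ± 0.26. Krt28 had a ratio of 0.06, and Krt36 one of −0.07 from probes at −0.16 and 0.01. The first Krt36 probe read 6.58 in the homozygous and 6.74 in the heterozygous lung, and the second 6.69 in the homozygous and 6.68 in the heterozygous lung.

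Among the 64 genes, 7 cleared background in the homozygous channel alone, and 0 in the heterozygous channel alone. Measured in both channels were 57 of the 64, against 19266 of 21262 genes over the whole array, which is a similar share. How the single-channel genes of the whole array divide between the channels is not given here. Over all spots, 75.6% were well above background in the homozygous and 69% in the heterozygous channel. The lowest signal of any probe well above background was 6.32 in the homozygous and 6.62 in the heterozygous channel. The call was not a fixed limit on this signal, as Krt9 at 6.75 in the heterozygous lung was not called there. Krt80 stood at 6.70 in the homozygous and 6.48 in the heterozygous lung, and Krt76 at 6.71 in the homozygous and 6.56 in the heterozygous lung. Their ratios of 0.23 ± 0.63 and 0.15 ± 0.43 lay inside their errors. The other genes of this kind were Cldn17, Krt9, Krt32, Krt35 and Krt71, also inside their errors. Their levels ran from 6.51 to 6.69 in the homozygous and from 6.41 to 6.75 in the heterozygous lung.

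By chain type, the 15 detected type I keratins had a median ratio of −0.07 and the 12 type II keratins one of −0.14. The types thus stood close together. Not well above background in either lung were Krt25, Krt26, Krt27, Krt31, Krt82, Krt83 and Krt85 of the hair and root sheath keratins, and Krt42, Krt78 and Krt222 of the others.

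Claudins had the widest range of ratios among the 7 role groups, with 19 detected genes between −0.72 and 0.65. Their median was −0.15 and became 0.29 with median centring and no loess, where all genes had a median of 0.22. Below 0 were 12 of the 19. Cldn10, a claudin whose isoforms form paracellular ion channels and which is known from club cells of the airway, had the lowest ratio of the family, −0.72 ± 0.21. Its level was 12.58 in the homozygous and 13.30 in the heterozygous lung, 1.64-fold lower in the homozygous. All 4 club cell markers were lower too, by more than 2-fold, from Scgb3a1 at −3.19 and Scgb1a1 at −2.47 to Cyp2f2 at −1.52 and Scgb3a2 at −1.35. The log2 of their summed level was 16.16 in the homozygous and 17.56 in the heterozygous lung. Their part in the Cldn10 value was not tested.

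Cldn6 and Cldn9, a pair of claudins best known from embryonic epithelia and, for Cldn9, the inner ear, had the highest ratios. Cldn9 stood at 10.73 in the homozygous and 10.08 in the heterozygous lung, a ratio of 0.65 ± 0.21 and 1.57-fold higher in the homozygous. Cldn6 stood at 14.00 in the homozygous and 13.41 in the heterozygous lung, a ratio of 0.60 ± 0.21 and 1.51-fold higher. These genes are neighbours on chromosome 17, with no other gene start between them in the RefSeq table, and their probes lie 1081 bases apart on opposite strands of mm8. Their probes share no run of 6 or more bases, and each gene rests on 1 probe.

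The Cldn6 promoter is shown for 1 gene of this pair, as no promoter sequence was available here for Cldn9. By the probe positions and strands it lies before Cldn6, on the side away from the Cldn9 probe. It is the 250 bases before the RefSeq start, chr17:23679115-23679364 on the plus strand of GRCm38.p6, and the E-box CAGGTG is in capitals.
Cldn6: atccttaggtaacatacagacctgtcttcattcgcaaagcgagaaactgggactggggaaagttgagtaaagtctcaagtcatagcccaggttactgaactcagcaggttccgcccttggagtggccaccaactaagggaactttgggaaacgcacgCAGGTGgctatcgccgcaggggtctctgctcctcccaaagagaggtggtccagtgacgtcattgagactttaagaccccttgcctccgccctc

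Claudin probes share a short pattern as well. The probe sequences of Cldn9, Cldn13 and Cldn19 are shown with that pattern, TTNTNNAACCC (N any base), in capitals. The Cldn9 probe lies at chr17:23410823-23410882 on the minus strand, the Cldn13 probe at chr5:135199467-135199526 on the minus strand and the Cldn19 probe at chr4:118755095-118755154 on the plus strand, all in mm8.
Cldn9: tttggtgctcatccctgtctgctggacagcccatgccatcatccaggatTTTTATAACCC
Cldn13: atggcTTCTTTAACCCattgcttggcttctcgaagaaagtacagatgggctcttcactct
Cldn19: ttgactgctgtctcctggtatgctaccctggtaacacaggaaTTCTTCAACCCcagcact

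On the probe strand the pattern was present in 38 of 41174 probes (0.0923%), 4 of them in the set. Of these 4, 3 are the probes it was drawn from, which had to match. The other is a probe of Krt71, and no other claudin probe held the pattern. The ratios of the 3 claudin probes did not go together. Cldn9 was at 0.65, the single Cldn13 probe at 0.20 ± 0.28, and this Cldn19 probe at −0.15 ± 0.29. That Cldn19 probe read 6.98 in the homozygous and 7.13 in the heterozygous lung, and the other Cldn19 probe, at 0.09, read 6.83 in the homozygous and 6.74 in the heterozygous lung.

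Cldn5, the claudin of endothelial tight junctions, stood at 14.62 in the homozygous and 14.82 in the heterozygous lung, a ratio of −0.20 ± 0.20. The endothelial markers had a median of −0.07, from Kdr at −0.38 and Emcn at −0.29 to Cdh5 at 0.08 and Tie1 at 0.13, and the log2 of their summed level was 15.41 in the homozygous and 15.68 in the heterozygous lung. Cldn3, a sealing claudin of epithelia, stood at 14.06 in the homozygous and 14.36 in the heterozygous lung, a ratio of −0.30 ± 0.21. Cldn4, its neighbour on chromosome 5 and another epithelial claudin, had a ratio of 0.07 ± 0.21. The ratios of these neighbours differed by 0.37 in size and those of Cldn6 and Cldn9 by 0.05, with 1 probe per gene. Different probes of a gene had an SD of 0.27, and whether the contrast exceeds that scatter was not tested. Cldn7, a claudin of the basolateral membrane, stood at 14.07 in the homozygous and 13.98 in the heterozygous lung, a ratio of 0.08 ± 0.20.

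Cldn18, whose lung isoform belongs to the alveolar epithelium, had a ratio of −0.27 ± 0.20, with 13.35 in the homozygous and 13.61 in the heterozygous lung. Alveolar type I markers had a median of −0.43 (Ager and Aqp5 both at −0.83, Cav1 at −0.03 and Pdpn at −0.01), with a log2 summed level of 14.86 in the homozygous and 15.03 in the heterozygous lung. Alveolar type II markers had a median of −0.55, from Sftpb at −1.72 and Sftpa1 at −1.54 to Abca3 at −0.37 and Sftpc at 0.33, and their log2 summed level was 17.46 in the homozygous and 17.22 in the heterozygous lung. Sftpc, at 17.41 in the homozygous and 17.09 in the heterozygous lung, made up most of that sum, while the other 5 type II markers were below 0. The part of the alveolar cells in the Cldn18 value was not tested. Cldn23 had a ratio of −0.47 ± 0.22, and Cldn11, the claudin of myelin and of the testis barrier, one of −0.44 ± 0.21. Cldn1, a barrier claudin of skin, had a ratio of −0.26 from probes at −0.49 and −0.03. The remaining claudins (Cldn14, Cldn22, Cldn15, Cldn17, Cldn12 and Cldn8) ran from −0.24 to 0.14. Cldn2 and Cldn16 were not well above background in either lung.

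Tight junction proteins other than claudins had a median of −0.04 over 7 genes, from −0.32 to 0.27. The median became 0.32 with median centring and no loess, against 0.22 for all genes. F11r, the junctional adhesion molecule JAM-A, stood at 13.80 in the homozygous and 14.12 in the heterozygous lung, a ratio of −0.32 ± 0.21. Among the tight junction proteins named here, it alone had a ratio beyond its error. The scaffold Tjp3 (ZO-3) stood at 10.55 in the homozygous and 10.76 in the heterozygous lung, a ratio of −0.20 ± 0.21.

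Tjp1 (ZO-1), the main scaffold under the claudins, had a ratio of 0.27 from probes at 0.08 and 0.46. Its brighter probe read 13.13 in the homozygous and 13.05 in the heterozygous lung, and the dimmer one, not well above background in the heterozygous channel, 6.95 in the homozygous and 6.49 in the heterozygous lung. Ocln (occludin), a membrane strand protein, had a ratio of 0.24 from probes at 0.04 and 0.44, the second of them dim. Marveld2 (tricellulin), which seals the points where several cells meet, was at 0.07, and the plaque protein Cgn (cingulin) was at −0.09 with 3 probes from −0.32 to −0.02. In Ocln and Tjp1 the dim probe carried the larger scanner error, 0.70 for Ocln and 0.40 for Tjp1.

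**Figure D3:**
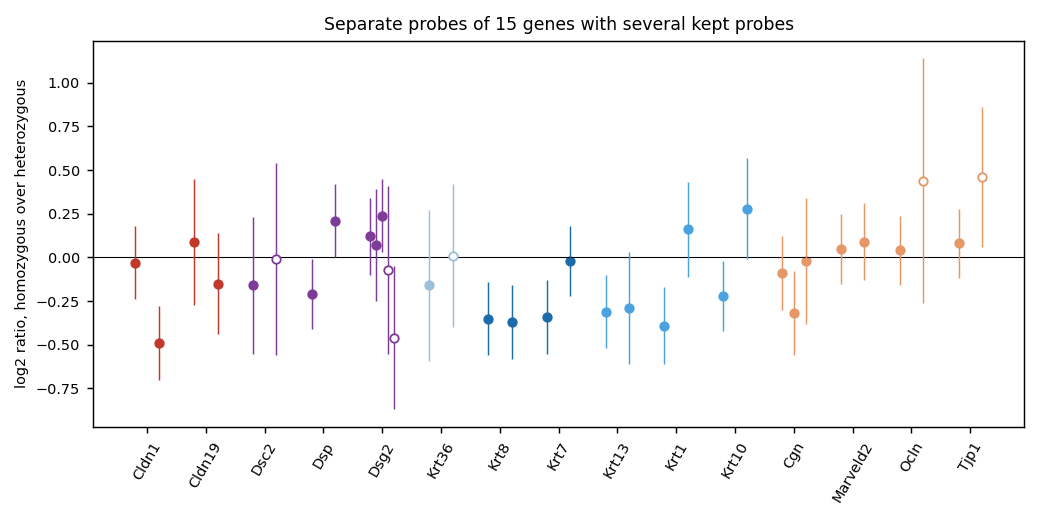
Log2 ratio (homozygous over heterozygous) of every kept probe of 15 genes with several kept probes, with the scanner software's error as bars; open circles mark probes that cleared background in 1 channel, and colours mark the role groups of the ratio plot. The probes of Krt8 and Krt13 lie on top of each other, while those of Krt1, Krt10, Dsp and Dsg2 fall on both sides of 0.

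Cdh1 (E-cadherin) and the epithelial adhesion molecule EpCAM, named Tacstd1 on this array and Epcam by its transcript accession, were the members of the adherens group. Cdh1 stood at 13.28 in the homozygous and 13.02 in the heterozygous lung, a ratio of 0.26 ± 0.21 over 8 repeated spots of 1 probe. Tacstd1 stood at 13.89 in the homozygous and 13.51 in the heterozygous lung, a ratio of 0.37 ± 0.21. Both were higher in the homozygous lung by more than the scanner error, while the simple keratins of the same epithelia lay below 0. With median centring and no loess the adherens pair stood at a median of 0.98 and the simple keratins at 0.50. All genes at a log2 intensity of 12 or more had a median of 0.68 there. For epithelium as a whole, the median over 6 detected lung epithelial markers was −0.05, from Elf5 at −0.45 and Elf3 at −0.11 to Foxa1 and Foxa2, both at 0.04. The log2 of their summed level was 15.09 in the homozygous and 15.18 in the heterozygous lung.

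Desmosomal genes had a median of −0.08 over 9 detected genes. Dsg1b, a desmosomal cadherin of stratified epithelium, had the lowest ratio of the whole set, −0.96 ± 0.27. Its level was 6.99 in the homozygous and 7.95 in the heterozygous lung, 1.94-fold lower in the homozygous. Only 1 of its 3 probes was well above background, and the other 2, near the detection limit, read 0.11 and 0.22. The value therefore rests on 1 dim probe, and it passed 2-fold under 4 of the 9 alternative settings and turned to 0.11 without the filter on dim probes. Dsg1c, its close relative, stood at −0.06 ± 0.42, and which of the closely similar desmoglein 1 copies of the mouse a probe reads is uncertain.

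Pkp2, the plakophilin of simple epithelia and of heart desmosomes, stood at 11.54 in the homozygous and 12.00 in the heterozygous lung, a ratio of −0.45 ± 0.21 that turned to 0.12 with median centring and no loess. Pkp3, a plakophilin of epithelia, stood at 10.83 in the homozygous and 11.11 in the heterozygous lung, a ratio of −0.28 ± 0.21 that likewise turned to 0.26. In that setting all genes between 8 and 12 in log2 intensity had a median of 0.41. Dsp (desmoplakin), which ties keratin filaments to the desmosome, had a ratio of 0.00 from probes of opposite sign. One read 12.56 in the homozygous and 12.77 in the heterozygous lung (ratio −0.21 ± 0.20), and the other 11.35 in the homozygous and 11.13 in the heterozygous lung (ratio 0.21 ± 0.21). Of its 4 probes, 2 were detected.

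Heart muscle also uses Pkp2, Dsp, Dsg2 and Jup, and cardiac muscle had the lowest median of the cell type lists, −2.60. All 4 were lower, from Myl7 at −3.52 and Tnni3 at −2.74 to Tnnt2 at −2.45 and Myh6 at −1.0, and the log2 of their summed level was 11.46 in the homozygous and 14.77 in the heterozygous lung. Jup (plakoglobin), the catenin of desmosomes, had a ratio of 0.13 ± 0.23. Dsg2, the desmoglein of simple epithelia and heart, had 5 kept probes from −0.46 to 0.24. The brightest of the 5 read 10.42 in the homozygous and 10.18 in the heterozygous lung (ratio 0.24 ± 0.21). The remaining 4 ran from 6.54 to 7.80 in the homozygous and from 6.62 to 7.68 in the heterozygous lung. The part of cardiac tissue in the Pkp2 value was not tested. Pkp1 and Dsc2 had ratios of −0.11 and −0.08, inside their errors. Dsc1, Dsc3, Dsg1a, Dsg3 and Dsg4 were not well above background in either lung.

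Related junction and filament genes outside the set gave the surroundings. The 14 other tight junction genes had a median of −0.03, from Magi2 at −0.37 and Sympk at −0.18 to Tjap1 at 0.17 and Mpdz at 0.38. The 14 polarity genes, whose products place the junctions, had a median of 0.04, from Mpp5 at −0.39 and Llgl2 at −0.23 to Llgl1 at 0.24 and Prkci at 0.26. The 15 other adherens junction genes had a median of 0.09, from Pvrl4 at −0.33 and Pvrl1 at −0.11 to Actn1 at 0.30 and Cdh3 (P-cadherin) at 0.55. In these 3 lists no gene differed 2-fold.

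Hemidesmosomes, which bind keratin filaments to the basement membrane, gave 9 genes with a median of −0.12, from Itgb4 at −0.63 and Plec1 at −0.41 to Lamb3 at −0.01 and Col17a1 at 0.80 ± 0.45. The gap junction connexins gave 11 detected of 14 genes, with a median of −0.37. Gja3, a connexin known from the lens, was the only gene of these junction lists at 2-fold, at −1.01 ± 0.24, followed by Gja4, a vascular connexin, at −0.68, while Gjb1 at 0.15 and Gjb5 at 0.50 were the highest. The cornified envelope and plakin genes gave 6 detected of 8 genes, with a median of −0.41, from Tgm1 at −0.67 and Sprr1a at −0.63 to Ppl at −0.14 and Evpl at 0.05.

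Intermediate filament genes other than keratins (13 genes) had a median of 0.06, from Ina at −0.51 (measured in the heterozygous channel alone) and Nefl at −0.44 to Lmnb1 at 0.34 and Nefm at 0.44. The 14 transcription factors known to regulate junction genes had a median of −0.09, from Klf4 at −0.55 and Klf5 at −0.32 to Snai1 at 0.15 and Ovol2 at 0.23. Of these 14, 12 were below 0, against 50.5% of all genes. Most of the 12 lay inside their scanner errors, and the Klf5 value rests on probes at −0.83 and 0.19.

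The remaining cell type lists describe the lobes themselves. The multiciliated list had a median of −2.06 over 4 detected markers (Dnali1 at −2.23, Ccdc113 at −2.20, Foxj1 at −1.92 and Tekt1 at −1.37), with a log2 summed level of 10.63 in the homozygous and 12.32 in the heterozygous lung. Multiciliated cells are epithelial cells of the airway and carry keratins and junctions too, and their part in the values above was not tested. Smooth muscle markers had a median of 0.28 (Tagln at 0.00, Acta2 at 0.20, Myh11 at 0.35 and Cnn1 at 0.52) and mesenchymal markers one of 0.03, from Pdgfra at −0.11 and Tbx4 at −0.02 to Col1a1 at 0.21 and Col1a2 at 0.48. Erythroid markers had a median of −0.62, from Alas2 at −1.73 to Epb4.2 at −0.15. The log2 summed level was 15.00 in the homozygous and 14.85 in the heterozygous lung for smooth muscle, 14.22 in the homozygous and 14.10 in the heterozygous lung for mesenchyme, and 17.57 in the homozygous and 17.98 in the heterozygous lung for erythroid cells.

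The bright members of the set moved with the normalization. As normalized here, all genes at a mean log2 intensity of 12 or more had a median ratio of 0.00 and the 14 genes of the set in that range one of −0.28. When ratios were only centred on their median, without a correction along intensity, the same classes had medians of 0.68 for all genes and 0.52 for the set. In both cases 10 of the 14 lay below the median of all genes as bright as they were. The correction takes off a smooth curve along intensity, so both cases rank the same 14 genes nearly alike and are not separate checks. Relative to equally bright genes, the median of these 14 genes in this 1 pair of lungs stood lower by 0.28 or by less. Its sign against 0 depended on the correction. Genes of the set between 8 and 12 had a median of −0.15 against 0.01 for all genes there, and those under 8 one of −0.06 against −0.02.

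**Figure D4:**
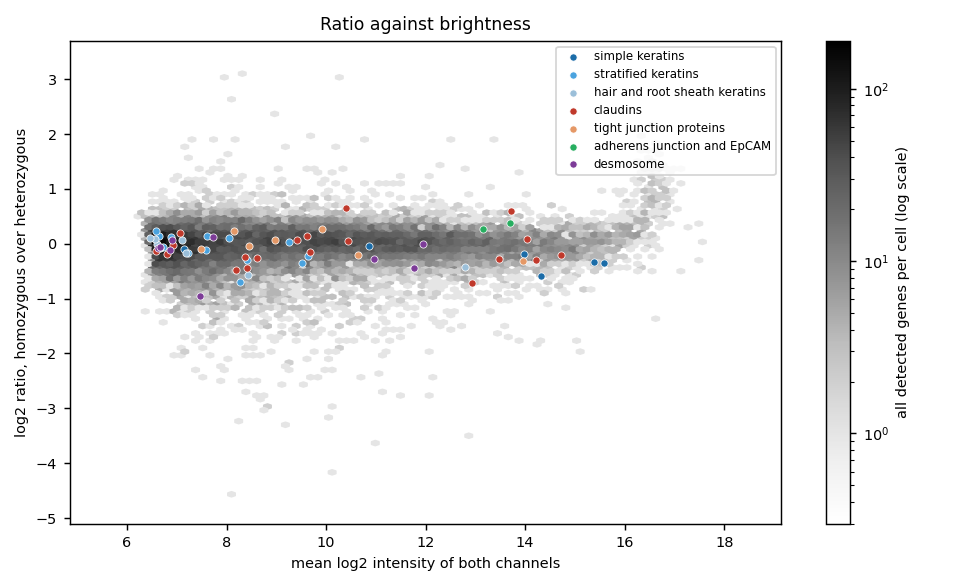
Log2 ratio (homozygous over heterozygous) against the mean log2 intensity of both channels, with all detected genes as grey cells (darker for more genes, log scale) and the 64 genes coloured by role. Most of the coloured points lie inside the dense band of all genes, and of the 14 at 12 or more, 10 lie below the median of that range.

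Cldn6, Cldn9, Cdh1 and Tacstd1 above 0, and Krt5, Krt34 and Cldn10 below 0, were among the 33 genes that kept 1 sign in all settings that gave them a value. Each gene just named has 1 probe, well above background in both channels. The probe filters and the summaries over probes could therefore not change its value. Median centring without loess raised bright genes as a class, to a median of 0.68 at 12 or more. It could therefore hardly turn a bright gene from above 0 to below it. Krt5 ran from −0.86 to −0.50 over 10 settings, Cldn9 from 0.65 to 1.16, Cldn6 from 0.60 to 1.29 and Tacstd1 from 0.37 to 1.06. Cldn10 ran from −0.72 to −0.09. The simple keratins did not keep 1 sign. Krt8 ran from −0.58 to 0.52, Krt18 from −0.45 to 0.52 and Krt19 from −0.59 to 0.17. Other ratios described above as below 0 also turned above 0 with median centring and no loess. They were those of Krt7 (0.54), Krt16 (0.22), Krt17 (0.07), Krt23 (0.49), Cldn3 (0.44), Cldn5 (0.59), Cldn15 (0.29), Cldn18 (0.40), F11r (0.39) and Tjp3 (0.32), beside Krt84, Pkp2 and Pkp3.

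**Figure D5:**
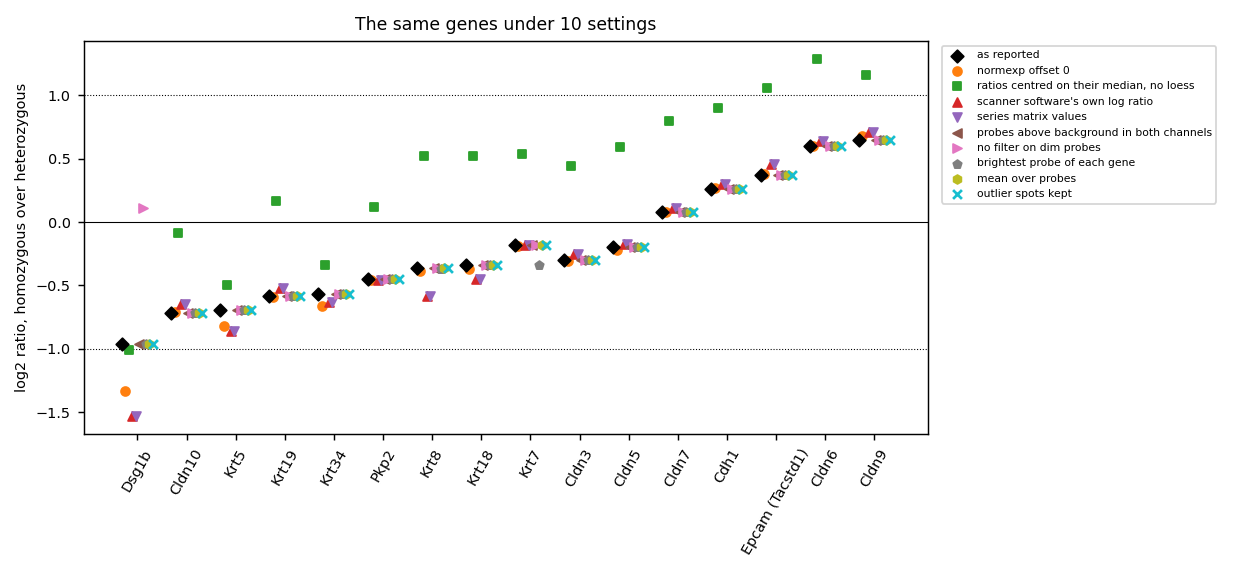
Log2 ratio (homozygous over heterozygous) of 16 genes under 10 settings; black diamonds are the values as reported, coloured marks the alternatives, and dotted lines the 2-fold rule. The green squares, ratios centred on their median with no loess, lie above the other marks for most of these genes, and above 0 for Krt8, Krt18, Krt19 and Krt7.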

How the data were processed

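Both scanner files deposited for the 2 lungs are identical copies of 1 Agilent 2-colour array, read with Agilent Feature Extraction 9.5.3.1 per the submitters' processing notes. The deposited mean signals and local backgrounds are intensity values on a linear scale, per the file headers, and the deposited log ratio is log10 of red (Cy5, homozygous) over green (Cy3, heterozygous). The series matrix deposited by the authors held each channel's processed intensity times 1.68 with a floor of 15 (medians 138.8 homozygous, 139.8 heterozygous), as found by comparison with the scanner values. The reason for the factor is unknown.

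Background was corrected with normexp (offset 50), and the log2 ratios come from a loess fit on this array that gave control spots no weight, in limma 3.58.1 (data.table version 1.17.8, R 4.3.3). Of the spots, 169 were outliers, 2 of them of the genes described, and were dropped with the controls, and 0 were saturated. The offset pulls the ratios of dim probes towards 0. Spots of a probe were averaged, probes with more than a 0.5 share of spots well above background in at least 1 channel were kept, and a gene took the median over its kept probes, for levels and ratios separately, so that the difference of its levels need not equal its ratio. Later steps used Python 3.11.15, numpy 2.4.6, pandas 2.3.3 and matplotlib 3.10.9. The normalization was tested on simulated data, with a smooth dye curve along intensity that loess is built to remove. The error allowed in that test was larger than most ratios given here. It therefore cannot decide between loess and median centring, or vouch for ratios of this size.

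With 1 lung per genotype no test was run. A 2-fold size rule (log2 ratio at most −1 or at least 1) stands in for a call. The members, the 20 surrounding gene lists and the rules were chosen with earlier results of these data known. Every detected member may be named, levels are given for ratios at or beyond 0.5, for the 3 brightest of each role and for probes of opposite sign or in 1 channel. Of each surrounding list the 2 lowest and 2 highest are named. Of the 109 probes, 85 were named by transcript accession and 23 by symbol through RefSeq's gene list for GRCm38.p6, and 1 by the file alone. Probe positions are those of the files, on mm8. Promoter sequences are RefSeq's, on GRCm38.p6. The 9 alternatives changed the offset, the normalization, the probe filter, the summary over probes or the outlier spots. Of the 64 genes, 1 tight junction gene enters the counts and medians and is not reported here by itself.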

Additional observations from a re-analysis of the deposited data

How the results depend on the processing

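The median over all 64 genes was −0.09 as reported and lay between −0.15 and 0.09 under the 9 alternatives. It was above 0 only with median centring without loess, at 0.09. The count at least 2-fold lower was 1 in place of 0 with offset 0, with median centring, with the scanner's log ratio and with the series matrix. That gene was Dsg1b, which ran from −1.53 to 0.11 over the settings and turned to 0.11 when the filter on dim probes was dropped. The count at least 2-fold higher was 3 in place of 0 with median centring (Cldn6, Cldn9 and Tacstd1), 3 with the scanner's log ratio (Krt32, Krt80 and Ocln, each with a kept probe measured in 1 channel) and 2 with the series matrix (Krt32 and Krt80). Median centring without loess also moved the medians of the simple keratins to 0.50, the claudins to 0.29, the other tight junction proteins to 0.32 and the adherens group to 0.98, and the median of all genes to 0.22. All genes at a log2 intensity of 12 or more had a median of 0.68 there. Median centring changed the sign of 24 of the 64 ratios. The scanner's log ratio and the series matrix changed 4 each, the brightest probe 2, no filter and the mean over probes 1 each, and the other alternatives 0. Over all genes, 400 were at least 2-fold lower and 123 higher as reported. These counts were 775 and 224 with offset 0, 305 and 722 with median centring, 1149 and 595 with the scanner's log ratio, and 1146 and 461 with the series matrix. The cause of these moves was not tested.

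No paired analysis was possible because each genotype has 1 lung. Dim signal limits the 7 genes measured in 1 channel, and single arrays limit all values.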
